A study of Mus musculus with 12 samples.

Results

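The transmembrane mucins were followed in jejunal enteroids, crypt-villus organoids of the mouse small intestine grown from isolated crypts. The members are 5 genes chosen by name, Muc1, Muc3, Muc4, Muc13 and Muc20, of the 18929 genes listed in the deposited count tables, and all 5 were listed. Transmembrane mucins are long glycoproteins anchored in the apical membrane of epithelial cells. Their O-glycosylated ectodomains form the glycocalyx that covers the microvilli and limits contact with luminal bacteria, and their short cytoplasmic tails bind signalling and scaffold proteins. In the small intestine they are made mainly by enterocytes, whereas the gel-forming mucin Muc2 is secreted by goblet cells.

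Poly(A) RNA-Seq libraries were compared from villin-Cre control, Hdac1-deficient (HDAC1-/-) and Hdac2-deficient (HDAC2-/-) enteroids, with 4 libraries per group, all collected after 5 days of culture. The mutants carry floxed Hdac1 or Hdac2 alleles, which encode the class I histone deacetylases HDAC1 and HDAC2, recombined by a Cre driven by the villin promoter, active in the intestinal epithelium. The study names the controls villin-Cre in its results and wild-type in its methods, so whether they carry the Cre is not certain. The mice share a mixed C57BL/6 J, 129SV and CD1 background. The methods describe crypts from a single wild-type, Hdac1 mutant or Hdac2 mutant mouse, so genotype, animal and enteroid line cannot be told apart, and p-values measure only the spread between these libraries. Animal ages were not given in the sources used here.

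Libraries held 20693200 to 30658628 reads counted on genes. With 3 counts as the floor, a gene could be detected from 0.0979 to 0.145 CPM (counts scaled to the library size), depending on the library. This floor covers counting error only. Hdac1 transcripts averaged 90.6 CPM in control and 4.23 CPM in Hdac1-deficient enteroids. Hdac2 transcripts averaged 137.0 CPM in control and 75.9 CPM in Hdac2-deficient enteroids, which is less than a 2-fold fall. By RT-PCR, Western blot and immunofluorescence, the study found each deleted gene lost in its mutant, as RNA and as protein. The counts here are per gene, and which exons were deleted is not given in the sources used here. Summed markers of enterocytes, goblet, Paneth and stem cells were abundant, each at 1679 CPM or more in every library. Some single epithelial markers were near the floor, with 0 to 8 counts for Lyz2 and 2 to 4 counts in control for Retnlb. Among markers of other tissues, Col1a2, Acta2 and Des of stroma, Cd3e and Cd79a of lymphocytes, and Cdh5 and Kdr of endothelium had at most 3 counts per library or were not listed. Other markers of the same lists were above that floor, with 94 to 161 counts for Vim, 19 to 88 for Itgam, 22 to 39 for Cd68, and up to 13 for Pecam1 and 14 for Tek. The libraries are bulk RNA from mixed cells, so fewer cells of a type and less RNA per cell cannot be told apart.

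The 5 genes lie on 3 chromosomes of GRCm38 (GENCODE M21 annotation). Muc3 (ENSMUSG00000037390, minus strand) spans chr5:137134922-137149322. Its GENCODE model holds 1943 exonic and 1134 coding bases, and the RefSeq model starts 16726 bases further upstream, so counts on the shorter model would leave out the 5′ part of the transcript. Which of these models the counts rest on is not given in the sources used here. Muc4 (ENSMUSG00000079620, plus strand, chr16:32735886-32782391, 11757 exonic bases) and Muc20 (ENSMUSG00000035638, minus strand, chr16:32777419-32797435, 4027 exonic bases) converge and overlap at their 3′ ends. Muc13 (ENSMUSG00000022824, plus strand, chr16:33794037-33819934, 3038 exonic bases) starts 996602 bases beyond the end of Muc20. Muc1 (ENSMUSG00000042784, plus strand) spans chr3:89229057-89233381.

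The 250 bases before the RefSeq start of Muc3, Muc13 and Muc4 are shown 5′ to 3′ on the strand of the gene, since these are the 3 members abundant enough to be tested (RefSeq sequence, GRCm38.p6). Capitals mark matches to short motifs searched on both strands.
Muc3, chr5:137166047-137166296, minus strand: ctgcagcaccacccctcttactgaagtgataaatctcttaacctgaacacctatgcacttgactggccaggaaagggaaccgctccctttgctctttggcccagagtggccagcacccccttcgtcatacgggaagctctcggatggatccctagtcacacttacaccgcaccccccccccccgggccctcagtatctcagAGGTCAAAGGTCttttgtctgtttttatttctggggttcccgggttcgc
Muc13, chr16:33793787-33794036, plus strand: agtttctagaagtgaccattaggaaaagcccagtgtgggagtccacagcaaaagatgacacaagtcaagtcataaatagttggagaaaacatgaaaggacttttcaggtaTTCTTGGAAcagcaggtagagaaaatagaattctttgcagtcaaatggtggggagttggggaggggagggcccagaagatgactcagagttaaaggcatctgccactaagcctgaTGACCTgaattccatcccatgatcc
Muc4, chr16:32735636-32735885, plus strand: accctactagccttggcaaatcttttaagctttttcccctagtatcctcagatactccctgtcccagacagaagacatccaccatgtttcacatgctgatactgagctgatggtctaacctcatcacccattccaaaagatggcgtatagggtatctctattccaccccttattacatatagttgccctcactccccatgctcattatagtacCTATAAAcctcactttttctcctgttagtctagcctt

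The capitals in the Muc3 window hold the nuclear receptor site AGGTCA followed, after 1 base, by the first 5 bases of a repeat of it, an incomplete direct repeat beginning at base -49 before the start. This repeat was held by 0.0761% of 32851 windows of the same length, and the single site by 14.02%. Both motifs were added to the search after the Muc3 window had been read, so the match is a description of that window. In the Muc13 window the capitals match TTCNNNGAA, the site of STAT factors, at base -140 (7.02% of windows) and AGGTCA on the opposite strand at base -25. In the Muc4 window the CDX site TTTATNG at base -37 (on the opposite strand, 9.81% of windows) overlaps the TATA box TATAAA at base -36 (12.4% of windows). The HNF4 site CAAAGNCCA (1.70% of windows), the HNF1 site GTTAAT (6.43%), the GATA site AGATAA (9.99%) and the GC box GGGCGG (32.7%) had no match in these 3 windows. RefSeq gives Muc13 a further start, with a window at chr16:33794239-33794488 that is not printed because 122 of its bases lie in annotated exons. That window held the HNF4 site at base -186, the HNF1 site at base -61 and the nuclear receptor site at bases -234 and -144 before the second start.

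The study also measured Muc3 by qPCR, and its oligonucleotides are shown because they tie that assay to the gene counted here.
Muc3 upstream primer: aacggccgatgtcaccactt
Muc3 downstream primer: ttgtcacctgtccagaaccc
Each primer matched transcripts of Muc3 and of no other GENCODE M21 gene, on 1 of the 2 Muc3 transcripts, and together they bound an amplicon of 171 bases. Muc3 and its neighbour Muc3a shared no stretch of 100 bases, the length of a read, in the GENCODE exons compared. The further RefSeq exons of Muc3 were not compared.

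Muc13 was the most abundant member in every library, Muc3 the next and Muc4 the third. Muc20 and Muc1 lay near the floor of detection. Of the 3 members that could be tested, Muc13 was raised to a similar level in both mutants, Muc3 was raised 2.65-fold in Hdac2-deficient enteroids, and Muc4 was higher with Hdac2 lost than with Hdac1 lost.

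**Figure D1:**
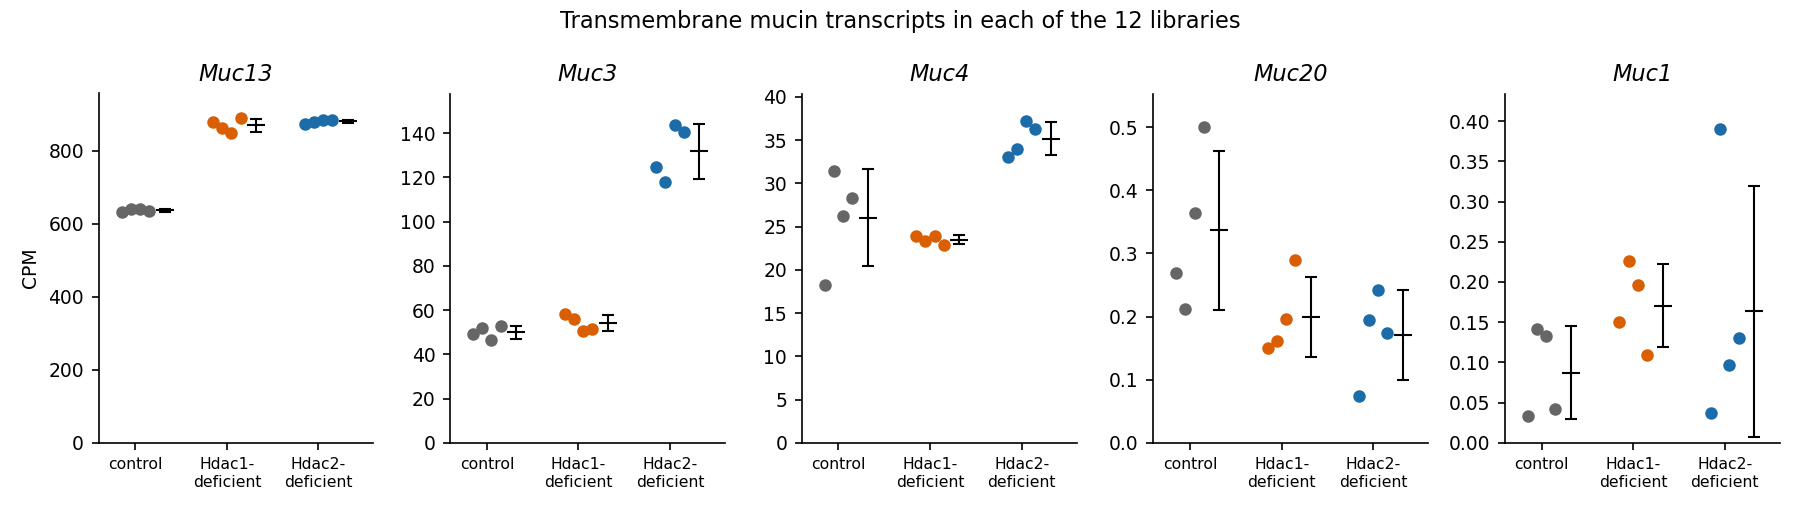
CPM of each transmembrane mucin in the 12 libraries (points, 4 per group), with mean and SD beside them and a separate axis from 0 for each gene. Muc13 separates both mutants from control, Muc3 separates Hdac2-deficient enteroids from the rest, and Muc20 and Muc1 stay at or under 0.501 CPM.

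Levels were compared between genes as CPM per kilobase of GENCODE exons. For Muc3 this is the shorter model, and the model counted is not known. Its level, ratios and share per kilobase therefore hold only for that length. In control enteroids Muc13 stood at 209.6 ± 1.44 CPM per kilobase (SD, n = 4), 8.14 times Muc3 at 25.7 ± 1.48. Muc3 stood 11.6 times above Muc4 at 2.21 ± 0.478, and Muc4 stood 26.5 times above Muc20 at 0.0836 ± 0.0314. Muc1 came last at 0.0372 ± 0.0246, and its libraries overlapped those of Muc20, so the order of these last members is not resolved.

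In both mutants the first 3 ranks were the same and none of them overlapped. Muc13 exceeded Muc3 10.3 times in Hdac1-deficient enteroids (286.5 against 27.9 CPM per kilobase) but 4.27 times in Hdac2-deficient enteroids (289.8 against 67.8). The mean of Muc1 was above that of Muc20 in both mutants, with overlapping libraries.

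Muc13 encodes a transmembrane mucin of enterocytes and goblet cells with a short mucin domain and EGF-like repeats. It was present at 631, 641, 639 and 636 CPM in control replicates 1 to 4. Hdac1-deficient libraries held 879, 863, 849 and 889.9 CPM, and Hdac2-deficient libraries held 874, 879, 885 and 883 CPM. Every mutant library lay above every control library, and the mutants overlapped each other. How many of all genes separate the groups in this way was not counted, here or for the members below.

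The log2 fold change of Muc13 was 0.47 (SE 0.03, 95% interval 0.40 to 0.53, adjusted p = 6.3e-11, edgeR quasi-likelihood test) for Hdac1 and 0.48 (SE 0.03, 95% interval 0.42 to 0.53, adjusted p = 1.9e-12) for Hdac2, each against control. Muc13 therefore rose in both mutants, by less than 2-fold. Between the mutants the difference was -0.01 (95% interval -0.07 to 0.04, adjusted p = 0.70, edgeR). Scaling by library totals alone turned the sign of that last difference to 0.01. An antisense gene, Gm15657, overlaps the start of Muc13 and shares 3.28% of its distinct 100-base stretches, and its mean was 0.299 CPM in control libraries, 0.242 with Hdac1 lost and 0.264 with Hdac2 lost.

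Muc3, a membrane mucin of the enterocyte brush border that the study used among its goblet cell markers, showed the largest difference among the tested members. Control libraries held 49.1, 51.7, 46.4 and 52.8 CPM, and Hdac1-deficient libraries 58.2, 56.1, 50.6 and 51.6 CPM. Hdac2-deficient libraries held 125, 118, 144 and 140.4 CPM. The lowest Hdac2-deficient library was above every other library, whereas control and Hdac1-deficient libraries overlapped.

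The log2 fold change of Muc3 in Hdac2-deficient enteroids against control was 1.41 (SE 0.07, 95% interval 1.26 to 1.55, adjusted p = 2.2e-09, edgeR). Between the mutants it was -1.28 for Hdac1 minus Hdac2 (SE 0.06, 95% interval -1.42 to -1.14, adjusted p = 1.1e-10). In Hdac1-deficient enteroids it was 0.13 against control (SE 0.05, 95% interval 0.02 to 0.24, adjusted p = 0.032). That last value did not pass an adjusted p of 0.05 in 5 of 15 alternatives, with adjusted p up to 0.13, among them the removal of control replicate 1 or 3 (0.12 and 0.09) or of Hdac1 replicate 1 or 2 (0.10 and 0.11).

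**Figure D2:**
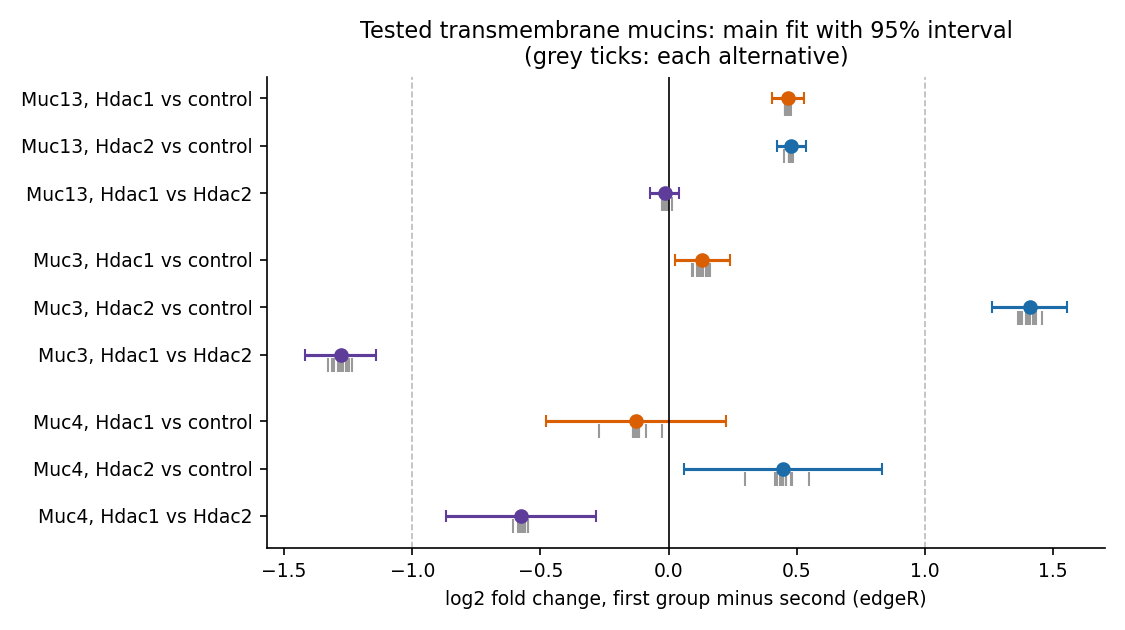
Log2 fold change (x axis, first group minus second, edgeR) of the 3 tested members in each comparison, with 95% intervals, grey ticks for each alternative and dashed lines at 2-fold. The intervals of Muc3 for Hdac2 against control (1.26 to 1.55) and between the mutants (-1.42 to -1.14) lie beyond the dashed lines, and the interval of Muc4 for Hdac1 against control (-0.48 to 0.22) holds 0.

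Muc4 encodes a very large membrane mucin whose ectodomain carries EGF-like repeats and binds the receptor ERBB2. Control libraries held 18.2, 31.4, 26.2 and 28.3 CPM, with replicate 1 the lowest. Hdac1-deficient libraries held 23.9, 23.4, 23.9 and 22.9 CPM, all inside the control range. Hdac2-deficient libraries held 33.1, 34.0, 37.2 and 36.3 CPM, all above every control and Hdac1-deficient library.

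The difference between the mutants was -0.58 for Hdac1 minus Hdac2 (SE 0.13, 95% interval -0.87 to -0.28, adjusted p = 0.0044, edgeR), and it passed the threshold in 19 of 19 alternatives. Against control, Muc4 changed by 0.45 in Hdac2-deficient enteroids (SE 0.16, 95% interval 0.06 to 0.83, adjusted p = 0.048), a value that did not pass in 8 of 15 alternatives, with adjusted p up to 0.10. In Hdac1-deficient enteroids the value was -0.13 (SE 0.15, 95% interval -0.48 to 0.22, adjusted p = 0.49). Without control replicate 1 these values became 0.30 (adjusted p = 3.2e-05) and -0.27 (adjusted p = 3.1e-04), so the removal of that library brought Muc4 below control in Hdac1-deficient enteroids past the threshold. The removal of any 1 of control replicates 3 and 4 or of the Hdac2 replicates took the Hdac2 value above it, at log2 fold changes of 0.42 to 0.48.

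Control replicate 1 also differed from the other control libraries by transcript length. Among 9329 genes with a mean of at least 10 CPM, the median log2 ratio of that library to the mean of the other 3 was -0.12 over 978 genes with more than 10 kb of exons and 0.11 over 1140 genes with less than 2 kb. The corresponding medians were 0.08 and -0.06 in control replicate 2, 0.07 and -0.06 in replicate 3, and -0.02 and 0.01 in replicate 4. Muc4, with 11.8 kb of exons, had a ratio of -0.65, and 0 of the 9329 genes were lower. Muc13 (-0.02) and Muc3 (-0.04), whose exons span 3.04 and 1.94 kb, were near 0 in the same library. The part of this library in the Muc4 results beyond the values without it was not tested.

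Muc20 and Muc1 were listed in both tables but fell below the filter on low counts in every comparison. Muc20, a small membrane mucin described as a partner of the MET receptor in kidney, had 8, 6, 11 and 12 counts in control replicates 1 to 4. Hdac1-deficient libraries had 4, 5, 6 and 8 counts and Hdac2-deficient libraries 2, 5, 5 and 4. Its mean was 0.337 ± 0.126 CPM in control (SD, n = 4). The means of the mutants were 0.200 ± 0.0634 CPM for Hdac1 and 0.171 ± 0.0709 CPM for Hdac2. All ranges overlapped.

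Muc1, a membrane mucin of many glandular epithelia whose tail binds beta-catenin, had 1, 4, 4 and 1 counts in control, 4, 7, 6 and 3 in Hdac1-deficient and 1, 10, 2 and 3 in Hdac2-deficient libraries. Exact two-sided permutation tests over libraries, 6 in all and able to reach 0.0286 at the least, gave p = 0.0571 for Muc20 in Hdac2-deficient enteroids and p = 0.114 in Hdac1-deficient enteroids, each against control (both 0.229 after Benjamini-Hochberg adjustment). The exact p for Muc1 was 0.114 (adjusted 0.229) for Hdac1 and 0.571 (adjusted 0.72) for Hdac2. Between the mutants the exact p was 0.943 for Muc1 and 0.60 for Muc20 (adjusted 0.943 and 0.72). A single one of the 6 tests could reach 0.171 at the least after adjustment, so these tests could not show a difference in 1 comparison alone. At these few counts no fold change is given for either gene.

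Exons of Muc4 and Muc20 share 627 bases, 5.33% of Muc4 and 15.6% of Muc20, where the 2 transcripts run in opposite directions. Per kilobase Muc4 exceeded Muc20 26.5, 40.3 and 70.3 times in control, Hdac1-deficient and Hdac2-deficient enteroids. The libraries were made with a kit that keeps strand, but the strand setting of the counting is not given in the sources used here. Without it, Muc4 reads in the shared bases cannot be told apart from Muc20 reads, and the few counts of Muc20 are uncertain for that reason too.

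**Figure D3:**
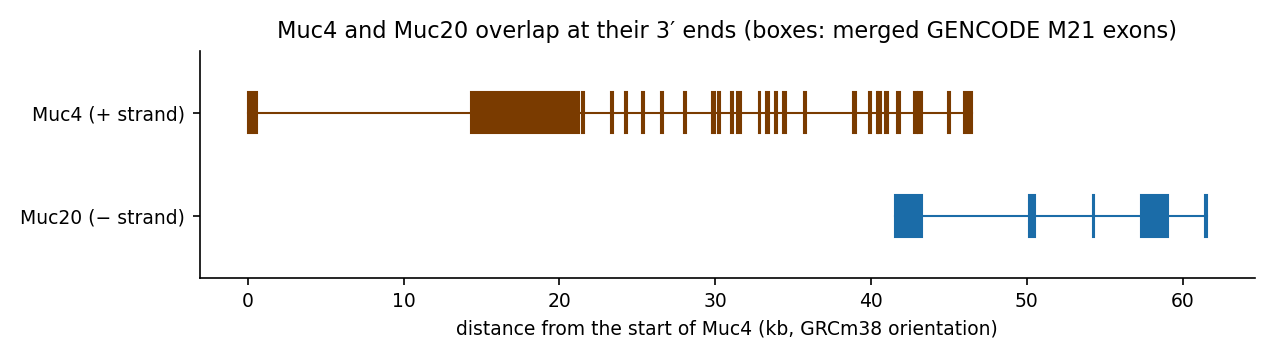
Merged GENCODE M21 exons (boxes) of Muc4 and Muc20 by distance in kb from the start of Muc4, with introns as lines. The 3′ exon of Muc20, on the minus strand, lies under exons near the 3′ end of Muc4, and the shared exonic bases number 627.

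The number of members called was set beside the rate over all tested genes. At more than 2-fold and an adjusted p of at most 0.05 (edgeR), 0 of 3 tested members were called in Hdac1-deficient enteroids against control, where 10.6% of all tested genes were called. In Hdac2-deficient enteroids 1 of 3 was called, Muc3, where 8.3% of genes were called and 5.45% were called higher. Between the mutants 1 of 3 was called, Muc3 again, with 5.62% of genes called and 2.89% called lower in Hdac1-deficient enteroids. With no limit on size, 2 of 3 members (Muc13 and Muc3) rose in Hdac1-deficient enteroids, where 32.7% of genes rose and 31.9% fell. All 3 rose in Hdac2-deficient enteroids, where 31.4% of genes rose and 30.9% fell. For Hdac1 minus Hdac2, Muc3 and Muc4 were lower at any size, as were 23.7% of genes. The comparisons with control share the same 4 control libraries.

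Summed over the 5 genes, transmembrane mucin transcripts reached 713 ± 10.9 CPM in control (SD, n = 4). The same sum was 949 ± 18.7 CPM for the Hdac1 mutants and 1048 ± 18.4 CPM for the Hdac2 mutants. Without Muc13 the sums were 76.5 ± 7.44, 78.0 ± 3.70 and 167 ± 14.01 CPM. The make-up of the sum therefore differed between the mutants. Per kilobase, Muc13 made 88.2% ± 0.636 of the control sum, 90.5% ± 0.515 of that of Hdac1 mutants and 80.4% ± 1.37 of that of Hdac2 mutants. Muc3 made 10.8% ± 0.550, 8.80% ± 0.513 and 18.8% ± 1.35. The share of Muc3 ran from 10.1% to 11.4% over control libraries, from 8.27% to 9.31% over Hdac1 mutant and from 17.2% to 20.1% over Hdac2 mutant libraries, without overlap. Muc4 made at most 1.11% of the sum in every library. Without division by length the mean share of Muc4 was 3.64%, 2.48% and 3.35%, and that of Muc3 7.01%, 5.71% and 12.6%.

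**Figure D4:**
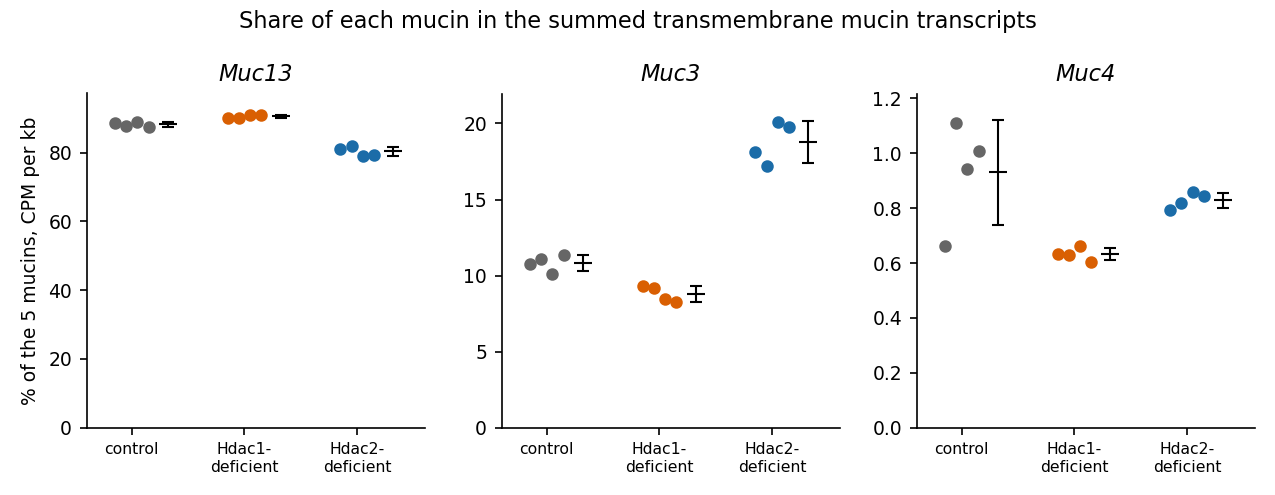
Share (%) of Muc13, Muc3 and Muc4 in the 5 summed transmembrane mucins, as CPM per kilobase, in each library, with mean and SD and axes from 0. Muc3 takes 17.2% to 20.1% of the sum in Hdac2-deficient libraries and at most 11.4% in the others.

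The 3 genes whose pattern over the 12 libraries lay nearest to that of Muc3 were Smpdl3b, Tff1 and Nfe2, among 14506 genes searched by the root mean square difference of centred log2 CPM. Smpdl3b, which encodes a membrane-bound phosphodiesterase, differed by 0.121 and averaged 21.1, 22.5 and 55.8 CPM in control, Hdac1-deficient and Hdac2-deficient enteroids. Tff1, a trefoil peptide of mucous cells, differed by 0.146 at a low level, 0.839, 0.864 and 2.12 CPM. Nfe2, a bZIP transcription factor, differed by 0.154 and averaged 2.62, 3.05 and 7.74 CPM.

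The nearest protein-coding genes on either side of the tested members were also compared. Muc3a lies 59490 bases from Muc3 and encodes a further membrane mucin. It fell by 0.24 in Hdac1-deficient (adjusted p = 0.026, edgeR) and rose by 0.22 in Hdac2-deficient enteroids (adjusted p = 0.041) on the log2 scale. On the other side of Muc3, Trim56, an antiviral ubiquitin ligase, rose by 0.25 and 0.22 (adjusted p = 4.7e-04 and 0.0017, edgeR). Both neighbours of Muc13 rose in both mutants. For Hdac1 32.7% of all tested genes rose and 31.9% fell, and for Hdac2 31.4% rose and 30.9% fell. Itgb5, an integrin subunit 9730 bases away, rose by 0.60 for Hdac1 and 0.49 for Hdac2 (adjusted p = 8.3e-10 and 5.5e-08, edgeR). Heg1, a membrane protein that also carries a mucin-like ectodomain, rose by 0.52 and 0.65 (adjusted p = 2.1e-04 and 1.8e-05, edgeR). Tnk2, a tyrosine kinase gene 52392 bases from Muc4, rose by 0.32 and 0.33 (adjusted p = 1.9e-06 and 8.2e-07, edgeR). None of these neighbours passed 2-fold.

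Genes that act with the membrane mucins were taken from lists. Of 6 other membrane mucins (Muc3a, Muc12, Muc15, Muc16, Muc17 and Muc21) only Muc3a was listed, at 7.60, 6.35 and 8.81 CPM in control, Hdac1-deficient and Hdac2-deficient enteroids. Of 5 secreted mucins (Muc2, Muc5ac, Muc5b, Muc6 and Muc19) only Muc2 was listed. These lists were matched by symbol. Whether the unlisted symbols were in the annotation used for counting, or stood under another name, is not given in the sources used here. Muc2 averaged 42.2 ± 7.54 CPM in control, 83.0 ± 6.94 CPM with Hdac1 lost and 82.9 ± 12.3 CPM with Hdac2 lost (SD, n = 4), and rose by 0.99 and 0.98 on the log2 scale (adjusted p = 3.0e-04 and 0.0018, edgeR). Muc2 differed by 0.0050 between the mutants (95% interval -0.30 to 0.31), where Muc3 differed by -1.28. By qPCR the study reported Muc2 raised with Hdac2 lost, in contrast to Hdac1 lost, whereas in these counts it rose in both mutants.

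Partners of the mucin tails and ectodomains were mixed. Of 12 tested, 6 rose, 3 fell and 3 did not pass the test for Hdac1, and their median log2 fold change was 0.12. In Hdac2-deficient enteroids 7 rose, 0 fell and 5 did not pass, with a median of 0.16. Over all tested genes 32.7% rose and 31.9% fell for Hdac1, and 31.4% rose and 30.9% fell for Hdac2, with medians of -0.0040 and -0.0036. Lgals3, a galectin that crosslinks the O-glycans of membrane mucins, rose by 1.07 for Hdac1 and 2.04 for Hdac2, and differed by -0.97 between them (adjusted p = 4.6e-08, edgeR). Pdzk1, an apical PDZ scaffold, rose by 1.78 and 1.32. Slc9a3r1, the scaffold that links apical proteins to ezrin, rose by 0.54 and 0.43, and the kinase gene Src by 0.32 and 0.25.

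Among 4 proteases able to release mucin ectodomains, Mmp14, a membrane-bound metalloproteinase, rose by 0.86 for Hdac1 and 2.04 for Hdac2. Its difference for Hdac1 minus Hdac2 was -1.18 (adjusted p = 6.6e-16, edgeR), the same direction as Muc3. Adam10 fell by 0.28 in Hdac1-deficient enteroids and had a value of -0.07 in Hdac2-deficient enteroids (adjusted p = 0.076). Adam9 rose by 0.18 in Hdac2-deficient enteroids and had a value of 0.01 in Hdac1-deficient enteroids (adjusted p = 0.90). The median of the list was -0.03 and 0.06.

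Among enzymes that begin and extend O-glycans, some rose and others fell, in counts to be read against the 32.7% of all tested genes that rose and 31.9% that fell for Hdac1, and 31.4% and 30.9% for Hdac2. Of 16 tested, 6 rose, 6 fell and 4 did not pass in Hdac1-deficient enteroids (median 0.0044), and 9 rose, 3 fell and 4 did not pass in Hdac2-deficient enteroids (median 0.11). Galnt4, a GalNAc transferase that acts on already glycosylated peptides, fell by 0.77 and 0.62. Galnt5, of the same family, rose by 0.69 and 0.84. The core-2 branching enzyme gene Gcnt4 rose by 1.01 and 0.58. Its relative Gcnt1 rose by 0.86 in Hdac2-deficient enteroids and had a value of 0.29 in Hdac1-deficient enteroids (adjusted p = 0.19, edgeR).

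Most listed genes of the microvillus, on which the membrane mucins sit, rose in both mutants, where 32.7% (Hdac1) and 31.4% (Hdac2) of all tested genes rose. Of 15 tested, 12 rose, 2 fell and 1 did not pass in Hdac1-deficient enteroids, with a median of 0.40, and 15 of 15 rose in Hdac2-deficient enteroids, with a median of 0.35. Espn, an actin bundler, rose by 1.00 and 0.69, and the brush border motor gene Myo1a by 0.67 and 0.96. Cdhr5, a mucin-like protocadherin that links the tips of microvilli, rose by 0.73 and 0.85. Baiap2l1, which shapes the actin core, rose by 1.12 for Hdac1 and 0.25 for Hdac2.

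**Figure D5:**
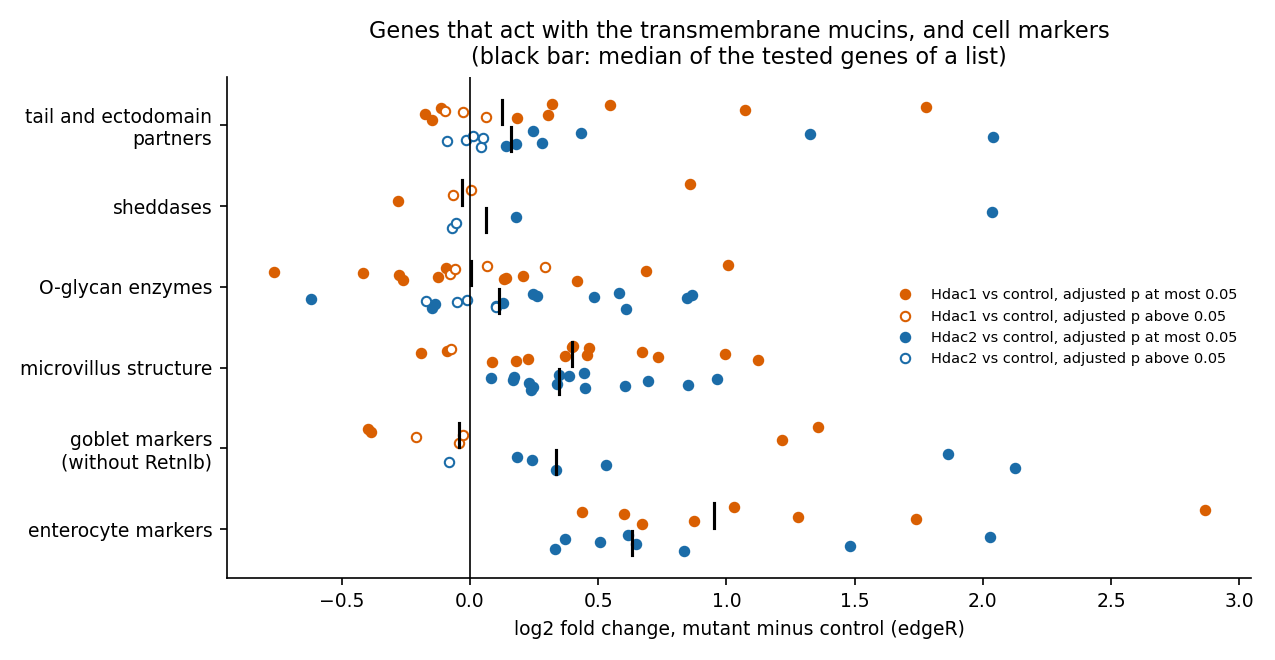
Log2 fold change against control (x axis, edgeR) of tested genes in 4 lists that act with membrane mucins and in 2 marker lists. Orange marks Hdac1-deficient and blue Hdac2-deficient enteroids, with black bars at the medians of the genes shown. Filled points passed an adjusted p of 0.05. Retnlb, at 2 to 4 counts in control, is left out of the goblet row and its bars, unlike the goblet medians in the text.

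Markers of the epithelial cell types were set beside these results. Over all tested genes 32.7% rose and 31.9% fell for Hdac1, and 31.4% rose and 30.9% fell for Hdac2. All 8 enterocyte markers rose in both mutants, with medians of 0.95 and 0.63, and their summed level was 8071 to 8601 CPM in control libraries, 16291 to 18446 CPM with Hdac1 lost and 12841 to 14413 CPM with Hdac2 lost. Muc13 and the microvillus genes rose in the same mutants. All 5 stem cell markers fell in both mutants, with medians of -0.75 and -0.59. Of 8 goblet markers, 3 rose and 2 fell in Hdac1-deficient enteroids (median -0.04), and 7 rose and 0 fell in Hdac2-deficient enteroids (median 0.43). Between the mutants 7 of 8 goblet markers were lower in Hdac1-deficient enteroids (median -0.61), the direction of Muc3 and Muc4. The enterocyte markers mostly went the opposite way. For Hdac1 minus Hdac2, 5 of these 8 were higher, 1 was lower and 2 did not pass (median 0.33). Of all 14510 genes tested between the mutants, 23.7% were lower in Hdac1-deficient enteroids and 3229 genes were higher. The summed goblet level was 1876 to 2089 CPM in control libraries, 1908 to 2053 CPM with Hdac1 lost and 3004 to 3211 CPM with Hdac2 lost. The part of these cell types in the mucin results was not tested.

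Other marker lists were mixed. Their counts are to be read against the 32.7% of all tested genes that rose and 31.9% that fell for Hdac1. For Hdac2 these shares were 31.4% and 30.9%. Of 6 tested Paneth markers, 2 rose and 1 fell in Hdac1-deficient and 5 rose in Hdac2-deficient enteroids. Of 6 enteroendocrine markers, 5 rose and 0 fell for Hdac1, and 4 rose and 1 fell for Hdac2. Of 4 tested tuft markers, 1 rose in Hdac1-deficient and 2 fell in Hdac2-deficient enteroids, at a summed level of at most 7.80 CPM. Summed stromal markers lay at 3.50 to 4.67 CPM in control libraries, 3.98 to 5.57 CPM with Hdac1 lost and 4.18 to 5.16 CPM with Hdac2 lost, and summed endothelial markers at 0.332 to 0.570, 0.413 to 0.834 and 0.629 to 0.938 CPM. Summed immune markers did not overlap between the groups. They lay at 1.88 to 2.26 CPM in control libraries, 2.69 to 3.77 CPM with Hdac1 lost and 4.08 to 5.08 CPM with Hdac2 lost. The share of all genes that separate the groups in this way was not counted. Lyz2 is in the immune list as well as in the Paneth list. Of 2 immune markers tested, Itgam, an integrin subunit of myeloid cells, rose by 1.28 for Hdac1 and 1.69 for Hdac2 (adjusted p = 9.0e-06 and 8.5e-08, edgeR). Cd68, a macrophage marker, rose by 0.45 for Hdac2 and had a value of -0.21 for Hdac1 (adjusted p = 0.035 and 0.34). The part of non-epithelial RNA in the mucin results was not tested.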

How the data were processed

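Reads (paired ends, 100 bases) were mapped by the authors with STAR, 2.4.0f1 in the submitters' processing notes, on GRCm38. The counting program, its annotation and strand setting are not given in the sources used here. They deposited raw read counts per gene in 1 table per mutant, 18676 genes for Hdac1 and 18225 for Hdac2, with the same control counts in both and a summed count of at least 10. The deposited normalized score (count times 1 factor per library, rounded), log2 fold change, average log2 CPM and p-values of the authors' own comparisons were not used.

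Counts were tested with edgeR 4.0.16 (R 4.3.3) by the robust quasi-likelihood F test with TMM scaling, filterByExpr and Benjamini-Hochberg adjustment over every gene in the fit. Either mutant was set against control over 8 libraries (14246 and 14007 genes), and the mutants with each other over all 12 (14510 genes of the 17972 in both tables). A call needed more than a 2-fold change and an adjusted p no larger than 0.05. "Rose" and "fell" without a fold limit mean the adjusted p alone. CPM uses the TMM factors of all 12 libraries. Levels between genes were divided by GENCODE M21 exonic length. Of each list up to 4 genes were named, those with the largest changes past the adjusted p against control. The alternatives were DESeq2 1.42.0, other scalings and filters, all 12 libraries in 1 fit or the 8 mutant libraries alone, no fold limit, no division by length, a replicate block and each library left out in turn. The scripts were tested on simulated counts. The members and lists were chosen with earlier results of these data known. The length comparison of the control libraries was added after the Muc4 values had been seen.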

Additional observations from a re-analysis of the deposited data

Results flagged for a closer look

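The mutants differed from each other in Muc3 and Muc4 when the difference itself was tested over all 12 libraries (edgeR). Muc3 stood at -1.28 for Hdac1 minus Hdac2 on the log2 scale, with means of 54.1 and 131.7 CPM where control libraries lay between 46.4 and 52.8 CPM, and was higher in 4 of 4 Hdac2-deficient libraries than in any other library. Muc4 stood at -0.58, with means of 23.5 and 35.1 CPM against 26.0 CPM in control, and was likewise higher in 4 of 4 Hdac2-deficient libraries. No library stood apart from its group by Dixon's 95% criterion in the 15 sets of 1 member in 1 group, where chance would mark about 1 set in 20.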

How the results depend on the processing

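With no limit on the fold change, the number of transmembrane mucins called was 2 higher for Hdac1, 3 higher for Hdac2 and 2 lower between the mutants, and the number of genes 4656 higher and 4540 lower, 4402 and 4327, and 3229 and 3436. Without the filter on low counts, 1581 genes were called higher for Hdac1, and 1170 higher and 622 lower for Hdac2. Library totals alone turned the log2 difference of Muc13 between the mutants to 0.0127. The cause was not tested. Leaving out each library in turn kept the number of members called at 0, 1 and 1. For Muc3 against control it gave 0.09 to 0.16 in Hdac1-deficient and 1.37 to 1.46 in Hdac2-deficient enteroids, for Muc4 -0.27 to -0.03 and 0.30 to 0.55, and for Muc13 0.46 to 0.48 and 0.47 to 0.48. Muc3 for Hdac1 also missed the adjusted p of 0.05 with all 12 libraries in 1 fit (0.12, adjusted p = 0.13), and Muc4 for Hdac2 with library totals alone (0.42, adjusted p = 0.062) and with no filter (0.44, adjusted p = 0.063). Replicate numbers were not taken to pair the libraries in the main fit. Deviations of same-numbered libraries correlated between -0.18 and 0.19, over 0.1 in 4 of 12 pairs. Differently numbered libraries were not compared, so these values cannot settle whether the libraries were paired. With the replicate block the members called stayed 0, 1 and 1, and the genes called were 978 higher and 523 lower, 763 and 395, and 393 and 419. Muc1 and Muc20 are limited by depth, at most 12 counts in any library.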

Other observations

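The low value of Muc4 in control replicate 1 was shared by Muc2 and Fcgbp and not by Muc13 (log2 ratio -0.02) or Muc3 (-0.04). Ratios of other mucus genes were not computed. These genes were chosen after their values had been seen. Muc2 stood at 33.1 CPM in that library against 51.3, 40.6 and 44.0 CPM in control replicates 2 to 4, a log2 ratio of -0.45 to their mean. Fcgbp, a secreted goblet cell protein with 10.5 kb of exons, stood at 782 CPM against 1057, 980.2 and 968 CPM, a ratio of -0.36. Of the 9329 genes compared, 17 had a ratio under -0.5 in control replicate 1, against 0, 2 and 4 in control replicates 2, 3 and 4.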
